A study of Homo sapiens with 6 samples.

Results

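The mRNAs of 9 bromodomain proteins, *BRD1*, *BRD2*, *BRD3*, *BRD7*, *BRD8*, *BRD9*, *BRPF1*, *BRPF3* and *BRWD1*, were followed in RNA immunoprecipitates of the RNA-binding protein IGF2BP3. They are the rows of the deposited count table that carry these gene names, 9 of 60655 genes. They were chosen by name and not by their values, although earlier results of these data were known. RNA immunoprecipitation followed by sequencing (RIP-seq) was performed in WaGa cells, an established Merkel cell carcinoma (MCC) line with a wild-type genotype that received no treatment. The study describes the line as positive for Merkel cell polyomavirus. RNA recovered with an IGF2BP3 antibody (named IMP3 in the tables, IGF2BP3 IP, n = 3) was compared with RNA recovered with a nonspecific IgG antibody (IgG IP, n = 3). The question was which transcripts the IGF2BP3 antibody recovers above the IgG background. All libraries come from a single cell line, and no input library was analysed here, so the amount of an RNA in the lysate and its recovery by the beads cannot be told apart, nor can fewer cells and less RNA per cell.

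A bromodomain is a small protein module that binds acetylated lysine, most often on histone tails, and so brings its carrier to active chromatin. The bromodomain and extra-terminal (BET) proteins, among them BRD2 and BRD3, link acetylated chromatin to transcription by RNA polymerase II and are the targets of BET inhibitors, a drug class that was also used on MCC cells in this study. Most of the other members are fixed subunits of chromatin complexes that acetylate or remodel nucleosomes. IGF2BP3 is an oncofetal protein that binds mRNA through RRM and KH domains and alters mRNA stability and translation. Its binding sites are known to be rich in CA-containing elements, and the IGF2BP proteins have also been described as readers of methylated adenosine in a GGAC context.

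Since the libraries report on RNA that may carry such elements, the reference transcripts of the members were searched for TGGAC, for CATA, CATC and CATT, and for ACAC, in DNA letters and on the sense strand only. A match is a description of the letters and not a binding site. There are 4 windows shown, those of the BET pair and of the members with the highest and the lowest fold change, and in each case it is the most 5′ of the 30-base windows with the most matches. Capitals mark the matched letters, and matches of different elements may overlap. The sequences are from GRCh38 and run 5′ to 3′ along the mRNA, in coding sequence of the canonical GENCODE transcript.
BRD2, chr6:32976348-32976377, plus strand: gtcctcaaCATTccccaccCATCagtCATT
BRD3, chr9:134048098-134048127, minus strand: taccacgaCATCATCaagcacccgaTGGAC
BRPF3, chr6:36200444-36200473, plus strand: tcgaggtagaCATTgaTGGACgcctgCATC
BRD1, chr22:49823382-49823411, minus strand: tttgccaACACggtgttCATCgagccCATC

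Each of these windows holds 3 matches. Of 1649054 windows of 30 bases tiled over the transcripts of the tested genes, 1.16% hold at least 3. Since each window shown is the best of its transcript, the matching background is the best window of every transcript. Of 11864 transcripts, 86.1% have one with at least 3, so the windows shown do not set their genes apart. Among the members not shown, the best window holds 3 matches in *BRD7*, *BRD9* and *BRPF1*. It holds 5 in *BRD8* and *BRWD1*, and 12.1% of transcripts have a window with at least 5. These shares are not adjusted for length, and a longer transcript has more windows to choose from. *BRWD1* is longer than 99.6% of the transcripts, so its share cannot be read as rarity. TGGAC alone was found in 3.04% of windows, CATA, CATC or CATT in 26.1% and ACAC in 7.81%. Over whole transcripts, the members carried between 0.74 (*BRD7*) and 2.95 (*BRPF1*) TGGAC per kb, and 6 of 9 lay above the median of 1.12 per kb over 11864 protein-coding genes tested. For CATA, CATC and CATT the density ran from 6.004 per kb in *BRD9* to 12.8 per kb in *BRWD1*, and only 2 of 9 lay above the median over the same genes. For ACAC, 6 of 9 lay above the median of 3.07 per kb. All 9 members had a coding sequence longer than the median of 1425 bases. *BRWD1* stood at the far end of the set, with a transcript of 17728 bases in 41 exons and a GC content of 37.1%, against 2665 bases for *BRD9*.

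Library totals ranged from 9758759 to 14886414 counts, and 14507 genes passed the filter on low counts, all 9 members among them. Within each IP, the replicate 1 library differed from the other two far beyond counting error, with a chi-square per degree of freedom of 18.2 to 21.9 against 2.20 and 3.25 between replicates 2 and 3. Markers of MCC summed to 4211 to 4580 normalized CPM (counts scaled to the TMM library size) in the IgG IP and 4080 to 4446 in the IGF2BP3 IP, with *NEUROD1*, a neuronal transcription factor on that list, at 0 to 2 counts per library. Among markers of other cell types, the leukocyte genes *PTPRC* and *CD3E* and the keratinocyte gene *KRT14* were at 0 counts in all 6 libraries, and *PECAM1*, *COL1A1* and *COL1A2* had at most 8. The fibroblast gene *DCN* was the exception, with 49.4 to 51.9 CPM in the IgG IP and 41.5 to 47.0 in the IGF2BP3 IP, and its part in the results was not tested.

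None of the 9 bromodomain mRNAs passed the test for enrichment in the IGF2BP3 IP or depletion from it. Fold changes ran from 0.904 for *BRD1* to 1.14 for *BRPF3*, and in all 9 the upper end of the 95% confidence interval lay below a 1.5-fold rise. With edgeR's quasi-likelihood test and thresholds of a 1.5-fold change and an adjusted p-value of 0.05, 0 of 9 were called, beside 1.16% of all tested genes called higher and 0 called lower. At an unadjusted p-value under 0.05 edgeR picked 0 of 9 members, beside 12.8% of tested genes, and DESeq2 also called 0 of 9, beside 0.963% of the genes it tested. The edgeR adjusted p-values lay between 0.467 and 0.970. With the replicate number as a block, edgeR again called 0 of 9 members, beside 3.56% of tested genes called higher and 0.103% lower, while *BRD2* and *BRPF3*, 2 of 9, had an unadjusted p-value under 0.05 beside 29.2% of tested genes. In 8 of 9 members the interval also lay above a 1.5-fold fall, a precision that 53.7% of tested genes reached, and the exception was *BRD1*. The median log2 fold change of the members was 0.04, against -0.01 over all tested genes, and the median size irrespective of sign was 0.11 against 0.15.

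**Figure D1:**
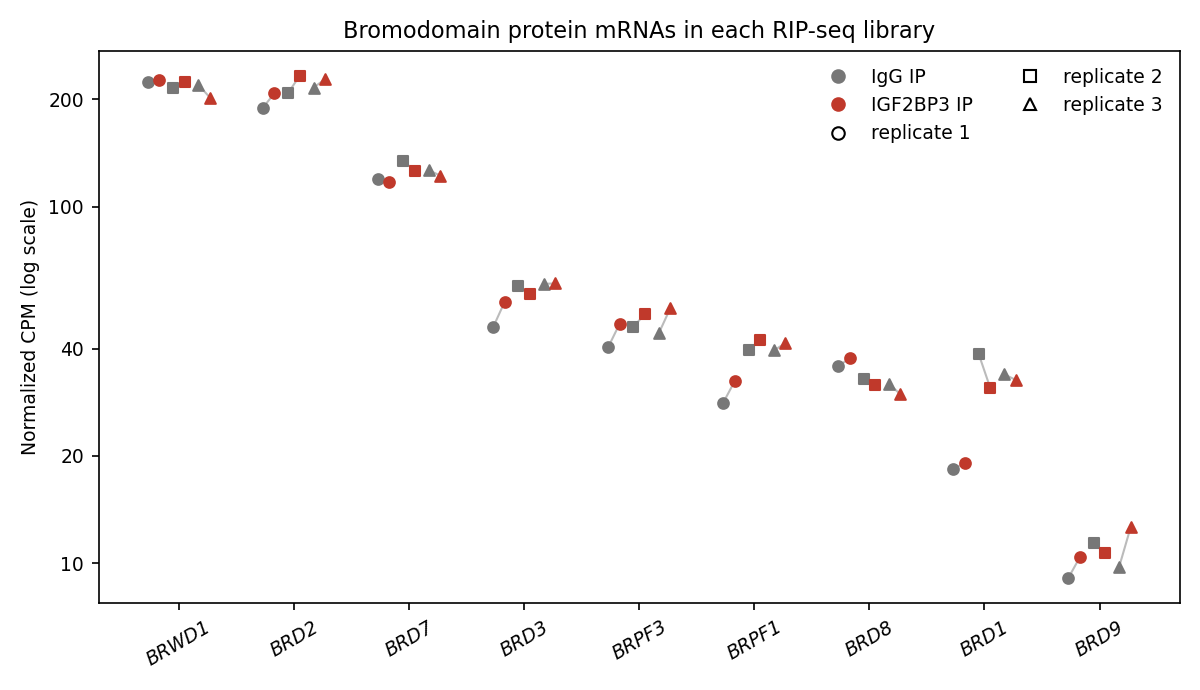
Normalized CPM (log axis) of the 9 mRNAs in each of the 6 libraries, one point per library, with grey lines joining the IgG and IGF2BP3 libraries of the same number. The IgG and IGF2BP3 points of each gene lie close together, with *BRPF3* as the only member whose 3 IGF2BP3 IP libraries all lie above its 3 IgG IP libraries.

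The BET mRNAs were well covered, and neither passed the test. *BRD2*, on chromosome 6 from 32968594 to 32981505, encodes a BET protein that binds acetylated histone H4. It was covered by 1746 to 3112 counts per library, and its normalized CPM were 189, 209 and 216 in IgG IP replicates 1, 2 and 3 and 208, 233 and 228 in the corresponding IGF2BP3 IP replicates. The ranges overlapped only through IGF2BP3 IP replicate 1, which lay below IgG IP replicates 2 and 3. Its log2 fold change was 0.12 (SE 0.08, 95% interval -0.07 to 0.31, edgeR adjusted p = 0.596), and each IGF2BP3 library lay above the IgG library of the same number, by 0.14, 0.16 and 0.08 on the log2 scale.

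*BRD3* (chromosome 9, 134030305 to 134068535) encodes a BET protein that also binds acetylated GATA1 in blood cells. Its CPM were 45.9, 59.9 and 60.7 in the IgG IP against 54.0, 56.8 and 60.9 in the IGF2BP3 IP. The IGF2BP3 libraries lay almost wholly inside the range of the IgG libraries, in which replicate 1 was the low one. *BRD3* had a log2 fold change of 0.04 (SE 0.12, -0.23 to 0.32, edgeR adjusted p = 0.931), with differences between same-numbered libraries that were mixed in sign, at 0.24, -0.08 and 0.00. The opposite strand holds *BRD3OS*, whose annotation overlaps 4362 bases of the *BRD3* gene and which had 121 to 277 counts. *BRD3OS* had a log2 fold change of 0.46 (SE 0.12, edgeR adjusted p = 0.126). Whether the counting used strand is not stated in the sources used here, so reads of the pair cannot be assigned with certainty.

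Taken within each library, the ratio of *BRD2* to *BRD3* is free of library scaling. On the log2 scale it was 1.80 to 2.05 in the IgG IP and 1.90 to 2.03 in the IGF2BP3 IP, with means of 1.89 ± 0.13 and 1.96 ± 0.07 (SD, n = 3 each). The IPs overlapped, and the difference of 0.07 was within the spread between replicates (exact two-sided permutation test, p = 0.5, where 3 libraries against 3 cannot go below 0.10).

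The scaffold subunits of the MOZ, MORF and HBO1 histone acetyltransferases held the highest and the lowest fold change of the set in the edgeR fit, an order that did not hold in every alternative. *BRWD1* was the highest with a GC correction (0.13 against 0.11 for *BRPF3*, log2). *BRD9* was the highest in limma on TPM, with a length correction and the replicate block, and without replicate 2 of either IP alone. *BRD8* was the lowest without IGF2BP3 IP replicate 1 alone and without IgG IP replicate 2 alone. *BRPF3* (chromosome 6, 36196744 to 36232790), which joins the HBO1 enzyme to its histone substrate, had CPM of 40.3, 46.0 and 44.1 in the IgG IP against 46.9, 50.0 and 51.9 in the IGF2BP3 IP. It was the only member without overlap between the IPs, 1 of 9 beside 12.0% of all tested genes that were higher in this way, and 0 of 9 were lower in this way beside 8.69%. The log2 fold change of 0.19 (SE 0.10, -0.03 to 0.40) did not pass the test (edgeR adjusted p = 0.467), and the exact permutation test gave p = 0.1, the smallest it allows. In TPM its libraries overlapped, at 6.88 to 12.8 in the IgG IP and 12.3 to 14.9 in the IGF2BP3 IP. The 3 tested genes with the most similar profile over the 6 libraries, by Euclidean distance of centred log2 CPM, were *TOP3A*, a DNA topoisomerase (distance 0.0761), *PSMF1*, a proteasome inhibitor (0.0808), and the unnamed transcript AL031985.3 (0.0825).

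*BRPF1* (chromosome 3, 9731729 to 9748019), the scaffold of the MOZ and MORF complexes, had CPM of 28.2, 39.6 and 39.5 in the IgG IP against 32.4, 42.3 and 41.4 in the IGF2BP3 IP. In both IPs replicate 1 was the lowest library, and the ranges overlapped. Its log2 fold change was 0.11 (SE 0.16, -0.25 to 0.47, edgeR adjusted p = 0.830).

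*BRD1* (chromosome 22, 49773283 to 49827873), also called BRPF2 and a partner of HBO1, varied more between replicates than any other member. Its counts were 170 to 576 per library, with CPM of 18.4, 38.6 and 33.9 in the IgG IP against 19.1, 31.0 and 32.7 in the IGF2BP3 IP. Both replicate 1 libraries stood well below the remaining libraries, while the IPs themselves overlapped. The replicate 1 libraries lay 1.79-fold below the others, which is -0.84 on the log2 scale, and only 2.80% of tested genes differed as much between replicate 1 and the rest. The log2 fold change was -0.15 (SE 0.28, -0.77 to 0.48, edgeR adjusted p = 0.877), the widest interval of the 9. Without both replicate 1 libraries it was -0.19 (SE 0.10, -0.39 to 0.02, edgeR adjusted p = 0.262), while it turned to 0.06 without IGF2BP3 IP replicate 1 alone and to 0.07 without IgG IP replicate 2 alone. What set the replicate 1 libraries apart was not tested.

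**Figure D2:**
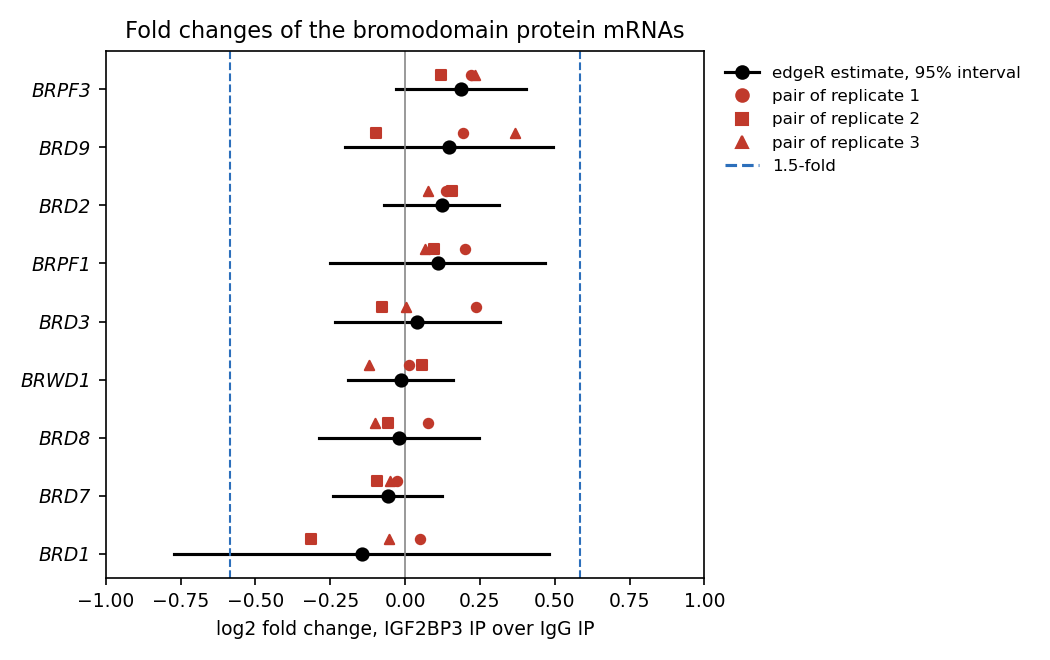
Log2 fold change of each of the 9 mRNAs in the IGF2BP3 IP against the IgG IP (edgeR), with the 95% confidence interval as a bar and the 1.5-fold thresholds as lines. All intervals include 0, and that of *BRD1*, from -0.77 to 0.48, is the only one to reach beyond a threshold.

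Neither SWI/SNF member passed the test. BRD7 is a subunit of the PBAF remodeling complex that has also been described as a p53 cofactor, and BRD9 defines the noncanonical BAF complex. *BRD7*, on chromosome 16, had CPM of 119, 134 and 127 in the IgG IP against 117, 126 and 122 in the IGF2BP3 IP, and was the only member below the IgG library of the same number in 3 of 3 pairs, beside 23.5% of tested genes. Its log2 fold change was close to 0, at -0.06 (SE 0.08, -0.24 to 0.12, edgeR adjusted p = 0.817), and turned positive with a GC correction (0.01) and in limma on TPM (0.09). *BRD9*, on chromosome 5, was the scarcest member with 84 to 170 counts per library. It had CPM of 9.11, 11.4 and 9.76 in the IgG IP against 10.4, 10.7 and 12.6 in the IGF2BP3 IP, and only IGF2BP3 IP replicate 3 lay above all IgG libraries. For *BRD9* the log2 fold change was 0.15 (SE 0.15, -0.20 to 0.49, edgeR adjusted p = 0.743). *ZDHHC11*, a gene on the same strand that overlaps 8683 bases of the *BRD9* gene, had 22 to 34 counts.

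*BRD8* (chromosome 5, 138139770 to 138178953), a subunit of the TIP60 acetyltransferase complex, had CPM of 35.7, 32.9 and 31.9 in the IgG IP against 37.6, 31.7 and 29.8 in the IGF2BP3 IP. The IGF2BP3 libraries covered the range of the IgG libraries at both ends, and the log2 fold change was -0.02 (SE 0.12, -0.29 to 0.25, edgeR adjusted p = 0.970). The gene shares 235 bases with *KIF20A* on the opposite strand, a kinesin gene with 842 to 1458 counts.

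*BRWD1* (chromosome 21, 39184176 to 39321559) encodes a WD-repeat bromodomain protein known for its part in B-cell development. Its transcript, the longest of the set, collected 2067 to 3203 counts per library. Its CPM were 224, 215 and 220 in the IgG IP against 226, 223 and 202 in the IGF2BP3 IP, and the ranges overlapped. The log2 fold change was -0.01 (SE 0.08, -0.19 to 0.16, edgeR adjusted p = 0.964), and it turned to 0.13 with a GC correction (edgeR adjusted p = 0.566).

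Across same-numbered libraries, *BRD2*, *BRPF1* and *BRPF3* were higher in the IGF2BP3 IP in 3 of 3 pairs, 3 of 9 members beside 25.1% of all tested genes. *BRD7* was lower in 3 of 3, and the other 5 were mixed. Over their profiles in the 6 libraries, *BRD2* and *BRPF3* were the most alike of the members (distance 0.128), and *BRD1* and *BRD8* the least (1.23). The second contrast is one between replicates, since relative to replicates 2 and 3 the replicate 1 libraries were low for *BRD1* (-0.84 on the log2 scale) and high for *BRD8* (0.21).

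On the TPM scale, the members fell into a high and a low set. By TPM averaged over the 6 libraries *BRD2* was the highest at 76.2, followed by *BRD7* at 55.1 and *BRWD1* at 53.9. *BRD7* and *BRWD1* were in this order in only 4 of 6 libraries, and *BRD2* lay above *BRD7* within each of the 6, although the ranges of the pair over all libraries overlapped. A clear step in TPM followed, with all libraries of *BRWD1* above all libraries of *BRD8*. It depended on the length used. The counts and FPKM imply 4.48 kb for *BRWD1*, whose canonical transcript has 17728 bases. Per kb of canonical transcript, mean normalized CPM were 43.1 for *BRD2*, 22.9 for *BRD7* and 12.3 for *BRWD1*. *BRD3* followed closely at 9.96 and *BRD8* at 8.25, so the step was small on that scale.

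The low set began with *BRD8* at 16.1 TPM and *BRD3* at 13.8, which were in this order in only 3 of 6 libraries. *BRPF3* had 12.0, *BRPF1* 10.3, *BRD1* 7.96 and *BRD9* 4.41 TPM. *BRD3* lay above *BRPF3* in only 4 of 6 libraries. From *BRPF3* down to *BRD9*, neighbours kept their order in 6 of 6 libraries while their ranges overlapped. In the BET pair, *BRD2* had 70.9 ± 20.4 TPM in the IgG IP and 81.4 ± 17.5 in the IGF2BP3 IP, and *BRD3* had 13.2 ± 5.64 and 14.4 ± 1.14 (SD, n = 3 each). By mean TPM the order of the 9 was the same in the IgG IP, which measures background recovery, and in the IGF2BP3 IP. Counts divided by the length of the canonical transcript kept 5 of the 9 at the same rank. Counts divided by effective length kept 7. That length was itself derived from the counts and the deposited FPKM values, so it is not an independent check of the TPM order.

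The TPM values, which RSEM estimates per transcript, gave larger differences than the counts for some members. For *BRD8*, TPM were 11.7, 14.8 and 14.8 in the IgG IP against 14.2, 22.3 and 18.5 in the IGF2BP3 IP, a difference of 0.40 in mean log2 TPM against -0.03 in mean log2 CPM. *BRD9* differed by 0.59 in log2 TPM against 0.15 in log2 CPM, from 1.97, 4.84 and 3.82 TPM in the IgG IP to 3.20, 5.31 and 7.30 in the IGF2BP3 IP. In TPM as well, both genes overlapped between the IPs.

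Over 14000 tested genes the log2 TPM difference exceeded the log2 CPM difference by a median of 0.15, with the central 90% of genes between -0.23 and 0.50. Gaps as large as those of *BRD8* and *BRD9* were found in 9.36% and 8.93% of these genes. The length that each library implies for a gene is its counts over the library's total and its FPKM. Apart from a scale common to all genes of a library, it restates the gap between TPM and CPM. It is therefore not a separate observation. The counts and the RSEM values are not one quantification, since 108 genes at 0 counts in all 6 libraries had over 1 TPM in each, so this length also carries any difference between the 2 counting methods. For *BRD8* it was 2.58 to 2.68 kb in the IgG IP and 2.66, 1.85 and 2.05 kb in the IGF2BP3 IP replicates, and was lowest in the last 2. For *BRD3* it ran from 4.21 to 5.73 kb in the IgG IP and from 3.75 to 5.84 kb in the IGF2BP3 IP, with no common direction. Whether transcript usage, its estimation or the counting method moved was not tested.

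**Figure D3:**
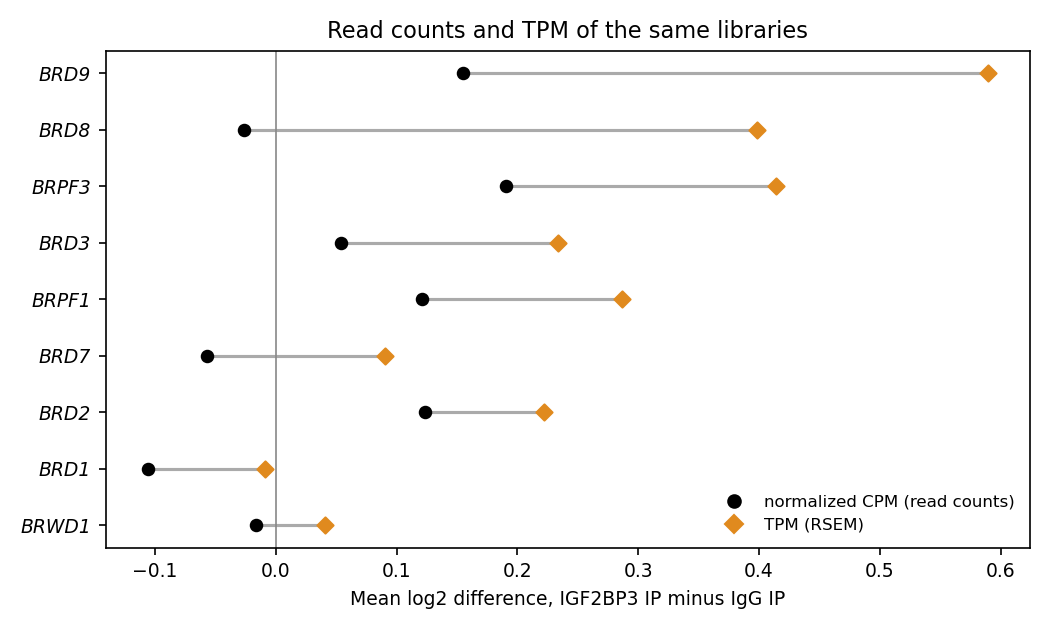
Difference between the IGF2BP3 IP and the IgG IP for each of the 9 mRNAs, as mean log2 normalized CPM and as mean log2 TPM. *BRD8* and *BRD9* show the widest gap between the scales, at -0.03 against 0.40 and 0.15 against 0.59.

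Genes that share a domain or a complex with the members gave no calls in edgeR with condition as the only term, where 1.16% of all tested genes were called higher and 51.1% lay below 0. Of 32 other bromodomain genes 26 were tested and 0 were called by edgeR or DESeq2. Their median log2 fold change was 0.02, with 17 above and 9 below 0. *TRIM28*, a corepressor of retroelements, was the highest at 0.54 (SE 0.10, edgeR adjusted p = 0.0415), a 1.46-fold difference that stayed under the 1.5-fold minimum, although a length correction with the replicate block brought it to 0.59 and a call (edgeR adjusted p = 3.76e-07). *ZMYND11*, a reader of methylated histone H3, was the lowest at -0.17. *BRDT*, the testis member of the BET family, was among the 6 that did not pass the filter.

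Among the partners of BRPF1, BRPF3 and BRD1 in the acetyltransferase complexes, 8 of 9 were tested, 0 were called by edgeR and 6 lay below 0 (median -0.06). *KAT7*, the HBO1 enzyme itself, had the highest value. It had 375, 801 and 699 counts in the IgG IP against 847, 1144 and 1038 in the IGF2BP3 IP, and all IGF2BP3 libraries lay above all IgG libraries. The log2 fold change of 0.68 (SE 0.14), or 1.60-fold, missed the edgeR threshold (adjusted p = 0.0518) and passed it with the replicate number as a block (edgeR adjusted p = 1.38e-07) and in DESeq2 (adjusted p = 0.00145). The lowest of the list was *ING5*, a reader subunit, at -0.20.

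All 18 SWI/SNF partners were tested and 0 were called, with a median of 0.04 and values from -0.17 for *SMARCE1* to 0.39 for *BICRAL* (edgeR adjusted p = 0.0939), which encode a core and a noncanonical BAF subunit. Of 17 TIP60 partners 0 were called, 13 lay below 0 and the median was -0.09. *EP400*, the ATPase of that complex, was the highest at 0.57 (SE 0.14, edgeR adjusted p = 0.0980), and *ING3* the lowest at -0.32. Of 10 factors that work with BET proteins or P-TEFb, the kinase that releases paused RNA polymerase II, 0 were called and the median was 0.03. *NSD3*, a histone methyltransferase that binds the extra-terminal domain, was the highest at 1.37-fold (log2 0.46, SE 0.08, edgeR adjusted p = 0.0326), also below the 1.5-fold minimum. *HEXIM1*, an inhibitor of P-TEFb, was the lowest at -0.13.

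**Figure D4:**
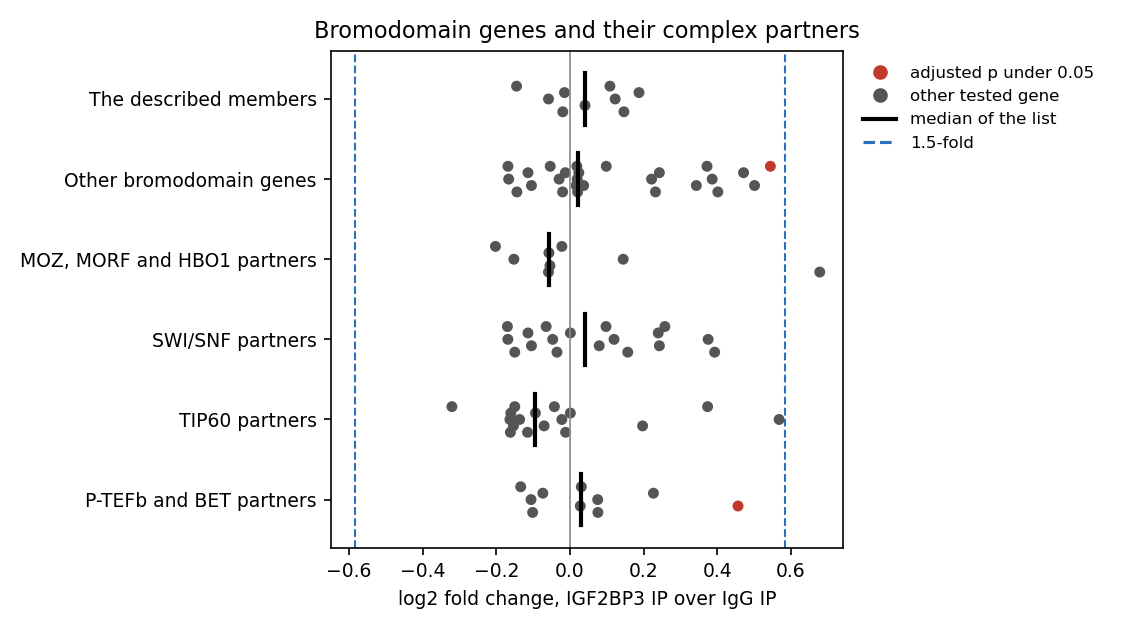
Log2 fold change (IGF2BP3 IP against IgG IP, edgeR) of each tested gene, by list, with the median of each list as a bar. The medians lie between -0.09 and 0.04, and single genes such as *KAT7* (0.68), *EP400* (0.57) and *TRIM28* (0.54) stand above their lists.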

How the data were processed

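The labels of the 6 RIP-seq libraries gave the groups and replicate numbers (150 bp paired-end reads), and the replicates are stated to be independent, all from 1 cell line. The authors aligned reads to GRCh38 with STAR 2.7.9a, quantified them with RSEM and GENCODE 37, and deposited a table of whole-number counts for each gene, not normalized. They also deposited TPM and FPKM values estimated by RSEM. The program and strand setting behind the counts are not given in the sources used here.

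Genes were filtered with filterByExpr, TMM-normalized and tested with edgeR 4.0.16 (R 4.3.3), quasi-likelihood, with condition as the only term and Benjamini-Hochberg adjustment over 14507 genes. A gene was called at a 1.5-fold change with an adjusted p-value under 0.05. The SE is the log2 fold change divided by the root of F. The pipeline was tested on simulated data. Alternatives were DESeq2 1.42.0, other scalings and filters, limma 3.58.1 on counts (voom) and on log2(TPM + 1 or 0.1), GC and length corrections, a replicate block and leaving libraries out. Deviations from the group means correlated at 0.60, 0.32 and 0.26 within replicate numbers 1, 2 and 3, so the block was used as an alternative. Across numbers 2 and 3 they correlated at 0.31 and 0.30, so these values set replicate 1 apart and do not tell 2 from 3. P-values weigh the difference between the IPs against the spread between these libraries. The members and lists were chosen with earlier results of these data known. Named genes were all members, the genes past the thresholds of each list or else its highest and lowest, and the 3 closest profiles. Of the genes overlapping a member, those with the most reads were named (*BRD3OS*, *KIF20A* and *ZDHHC11*). The other overlapping genes had at most 25 counts in a library. Transcript features and windows used GENCODE 44 on GRCh38. A gene that the same domain would cover is not reported here.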

Additional observations from a re-analysis of the deposited data

How the results depend on the processing

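None of the 9 members was called in any of the 22 alternative analyses, in which the lowest adjusted p-value (edgeR, DESeq2 or limma) was 0.0762. Direction held in 170 of 198 combinations of member and alternative, and the 28 changes of sign fell on 6 members. *BRD3* was -0.00068 with a GC correction, -0.019 with a length correction, -0.022 with that and the replicate block, and -0.034 without both replicate 1 libraries, an alternative chosen after seeing the data. *BRPF1* was -0.016 with the GC correction and -0.010 with the block added. *BRD7* was 0.012 and 0.013 in the same fits, and 0.088 and 0.090 in limma on log2(TPM + 1) and log2(TPM + 0.1). *BRWD1* was 0.134 and 0.133 with the GC correction, 0.027 with library totals, and 0.040 and 0.041 in limma on TPM. *BRD8* was 0.022 with library totals, and 0.375 and 0.396 in limma on TPM. On the TPM scales *ING5* (0.147 and 0.151) and *SMARCE1* (0.145 and 0.146) also turned, and the member median moved to 0.219 and 0.231 while that of all genes shifted by 0.12 and 0.14.

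The difference between *BRD2* and *BRD3* was -0.011 in TPM, and 0 members were without overlap in TPM (9.64% of tested genes). Ranks by counts per kb of the canonical transcript held for 5 members. By effective length they held for 7, but that length was derived from FPKM and is not independent of the TPM order. Leaving out 1 library, or both of replicate 1, gave member medians of -0.027 to 0.114, with -0.390 to 0.069 for *BRD1*, -0.074 to 0.114 for *BRD3*, -0.123 to 0.037 for *BRD8*, -0.029 to 0.219 for *BRPF1* and -0.046 to 0.021 for *BRWD1*. The *BRD2* to *BRD3* difference ran from 0.024 to 0.147, and the number without overlap from 1 to 3, with 3 when IGF2BP3 IP replicate 1 was left out and 2 without IgG IP replicate 2, where 20.8% and 15.4% of tested genes were without overlap.

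With the replicate block, *BRD2* had a log2 fold change of 0.12 (edgeR adjusted p = 0.137) and *BRPF3* of 0.19 (edgeR adjusted p = 0.0954). Among the named genes the block alone changed only the call of *KAT7*, and with a length correction that of *TRIM28* (0.589) too, with 517 genes called higher and 15 lower over the whole table against 169 and 0. Without both replicate 1 libraries *KAT7* and *EP400* were called, among 466 genes. DESeq2 called 281 genes, edgeR without a filter 359, the GC correction 111 and limma on TPM 0. Leaving out 1 library gave 0 to 244, with 0 without IGF2BP3 IP replicate 2, 23 without replicate 3 of that IP, 19 without IgG IP replicate 2 and 7 without IgG IP replicate 3.

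The limits are 3 libraries a group, a single cell line and no input. *BRD9* had at most 170 counts in a library, the TPM columns carry no depth, and with all 6 libraries the interval of *BRD1* spans both no change and a 1.5-fold fall.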
